A study of Mus musculus with 4 samples.

Results

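The NF-κB subunits and their feedback genes were read in cultured mouse lung endothelial cells (ECs) with and without induced deletion of ADAR1, the enzyme that edits adenosine to inosine in double-stranded RNA. The genes were chosen as a list of names, with earlier results of these data known, and they are 10 of the 24421 genes in the deposited count tables. Nfkb1, Nfkb2, Rel, Rela and Relb encode the 5 subunits. Nfkbia, Nfkbie and Tnfaip3 encode inhibitors of the pathway, and Tnfaip2 and Birc3 are known targets of it. The cells came from 2 male C57/BL6 inducible ADAR1 KO (i-KO) mice of 2 weeks of age and of separate litters, named EC1 and EC2. One culture of each mouse received 4-OH-tamoxifen (TM), which switches on a Cre recombinase that removes a floxed part of Adar, and the other culture received nothing (CON). Each culture gave 1 RNA library, which makes n = 2 per group with the groups paired by mouse. In the main tests, p-values for counts (edgeR) measure the spread between these cultures, without the mouse as a term. Those for depth (limma) measure the spread of the 2 within-mouse differences, moderated over genes. Those for editing (Fisher's exact test) measure the sampling of reads only. Both groups carried the floxed allele and the inducible Cre, and CON received no agent in place of 4-OH-tamoxifen, so that the effects of the agent and of the deletion cannot be told apart. The cells were selected with CD31 and later ICAM-2 antibodies and grown in serum. The promoter of the inducible Cre was not given in the sources used here.

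NF-κB is a family of transcription factors that bind DNA as pairs of subunits. In resting cells the pairs are held in the cytoplasm by IκB proteins, and signals from receptors of TNF, interleukin-1, bacterial products or foreign RNA lead to the loss of IκB and the entry of NF-κB into the nucleus. Many of its target genes encode its own inhibitors and subunits, which closes a feedback loop, and in ECs the pathway is known for inducing adhesion molecules and chemokines.

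Binding sequences for NF-κB near the starts of the members are shown first, because several members are known targets of the factor themselves. The 250 bases before each gene start in RefSeq (GRCm38.p6), available for 8 of the 10 genes, were searched on both strands for the κB consensus. Of the 8 genes, 6 held a match before a start, namely Tnfaip3, Nfkbia, Nfkbie, Rel, Nfkb2 and Tnfaip2, and Rela and Birc3 held none. The share over all genes of that source was 8.23%. A match describes the letters and does not show that the factor was bound. Stretches of 30 bases around matches are printed on the strand of the gene, from 5′ to 3′, with the match in capitals.
Tnfaip3, chr10:19015516-19015545, minus strand: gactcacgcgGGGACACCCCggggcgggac
Tnfaip3, chr10:19015411-19015440, minus strand: gtgactggaatttccatcGGAAATCCCCct
Rel, chr11:23771042-23771071, minus strand: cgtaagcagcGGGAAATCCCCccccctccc
Nfkbie, chr17:45555584-45555613, plus strand: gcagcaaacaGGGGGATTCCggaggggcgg
Nfkb2, chr19:46304688-46304717, plus strand: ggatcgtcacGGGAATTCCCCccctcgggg
Nfkb2, chr19:46305449-46305478, plus strand: tccgacggcaGGAATGTCCCcacaaaagcc
For Nfkbia the whole window before the start, chr12:55492648-55492897 on the minus strand, is given, since it held no annotated exon. Its match lay 29 to 20 bases before the start, close to the core promoter.
Nfkbia: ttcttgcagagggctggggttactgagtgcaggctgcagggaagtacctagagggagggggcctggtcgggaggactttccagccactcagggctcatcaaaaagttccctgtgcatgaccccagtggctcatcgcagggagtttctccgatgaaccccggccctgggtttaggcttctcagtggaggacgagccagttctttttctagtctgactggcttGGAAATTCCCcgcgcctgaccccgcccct
RefSeq and GENCODE vM21 place some starts differently, so that 110 of the 250 bases of the first Tnfaip3 window and all of the first Nfkb2 window lie in exons of GENCODE. The same holds for 192 bases of the Tnfaip2 window and 234 of the third Nfkb2 window. The matches of Tnfaip3, Tnfaip2 and Nfkb2 lie past the outermost GENCODE start of their gene. The matches of Tnfaip3 lay 125 to 116 and 12 to 3 bases before its first start. The motif TATAAA was found in the window of Tnfaip3 alone among the 8 genes, against 14.3% of all genes, and the interferon-type motif GAAANNGAAA in none of the 8, against 3.46%.

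The targeted gene was read first. In exons 12 to 14 of Adar, the CON culture of EC1 listed 3 sites (median 145 reads) and its TM culture none, while for EC2 the CON culture listed 1 site of 169 reads and the TM culture 2 sites (median 65.5 reads). The count over the whole gene was 9 and 16 in the CON libraries and 47 and 71 in the TM libraries (log2 fold change 1.87, SE 0.45, adjusted p = 0.00609 by edgeR), and Chrnb2 has an exon opposite to it. By count and by depth (log2 difference 2.03, SE 0.13, adjusted p = 0.00192 by limma) the gene as a whole was higher in TM, while the exons named above were covered less in the mouse where both cultures gave a value. Counts on genes were 1095488 to 1778732 per library, only 0.823% to 0.858% of what each table held with its summary rows for reads on no gene. Most reads on a gene were therefore not in its count. The library kit marks strand, and the counting default takes the first read to lie on the strand of the gene. Whether that setting fitted these libraries was not tested, so the counts of every gene below may hold reads of the opposite strand. A change in a count below is therefore not by itself a change in the RNA of that gene. A second reading was taken from the deposited table of variant sites, which gives the number of reads at each site. This exonic depth is the median over the exon and UTR sites that a library lists for a gene, scaled per 100000000 of the library's total. It is a level per base at the listed sites only, so a comparison between genes is rough where few sites are listed. Strand is not part of it, so the depth of a gene with an exon of another gene opposite to it may hold reads of that other gene. Each site enters the table of a library only if at least one read differs from the genome there, so deeply covered genes list more sites.

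By exonic depth scaled to the library totals, the values of the subunits and feedback genes were higher in TM in every pair that could be formed, by next to nothing for Nfkbia in EC1. Its log2 difference there, 0.014, was below the median over all genes (0.0297), so that centring on that median turns its sign. All 7 members with sites in both EC1 libraries were higher in EC1 TM, and all 9 in both EC2 libraries were higher in EC2 TM, while 52.8% of all genes were higher in TM in EC1 and 46.4% in EC2. The ratios ran from 1.01 for Nfkbia to 8.38 for Tnfaip3, both in EC1. In 5 of the 7 members with a value in all 4 libraries, namely Tnfaip3, Birc3, Nfkb2, Rela and Nfkb1, both TM libraries lay above both CON libraries, against 25.9% of all genes. In limma's test of the within-mouse differences, Tnfaip3 and Rela rose, while 6.67% of the 9788 genes tested rose and 6.58% fell. The median log2 difference was 0.68 over the 7 members and 0.00191 over all genes tested. The larger set of sites was chosen after the data were seen, and Rela passed the threshold narrowly.

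**Figure D1:**
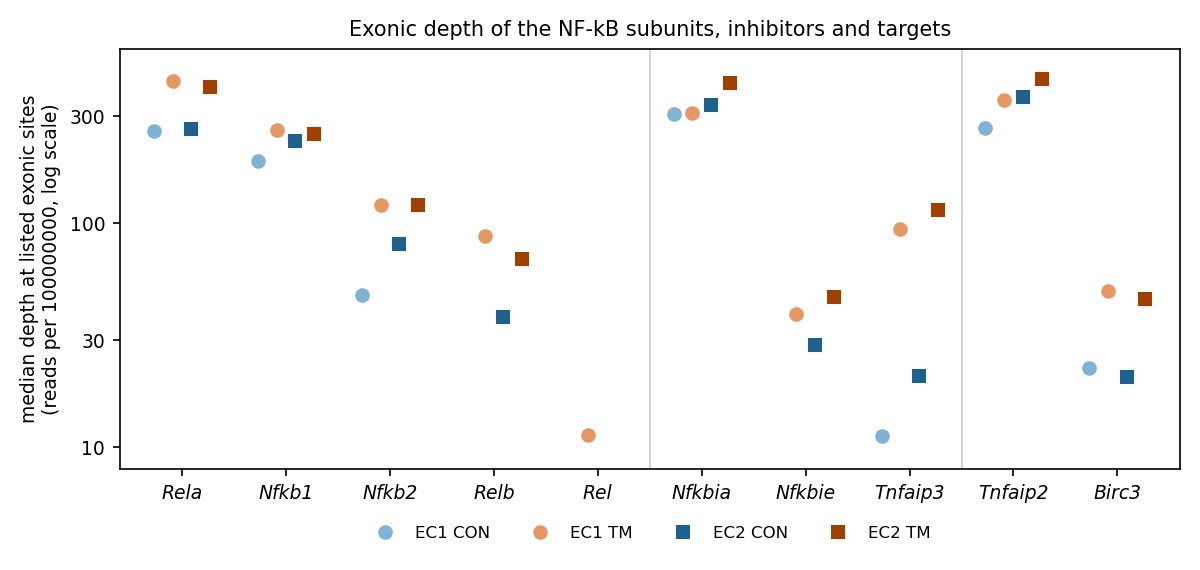
Exonic depth (median over listed exonic sites, reads per 100000000, log axis) of each gene in the 4 libraries, with subunits on the left, inhibitors in the middle and targets on the right. Circles are EC1, squares are EC2, blue is CON and orange is TM, and a missing point means that the library listed no exonic site. Tnfaip3 went from 11.3 to 94.5 in EC1 and from 20.9 to 115 in EC2.

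Tnfaip3 encodes A20, a ubiquitin-editing enzyme that shuts the pathway down after a signal. Its exons, on the minus strand of chromosome 10 between 19000910 and 19015657 (GENCODE vM21, mm10), went from a median depth of 15 reads in CON to 124.5 in TM for EC1, and from 30 to 238 for EC2. Both CON libraries were low and both TM libraries high, with no overlap. Scaled to the library totals, depth was 8.38 times higher in EC1 TM and 5.49 times higher in EC2 TM, and the log2 difference was 2.76 (SE 0.41, adjusted p = 0.0151 by limma). The number of exonic sites followed, with 1 site in CON and 14 in TM for EC1, and 2 and 30 for EC2. Over all genes the number of exonic sites in TM was 1.07 times that in CON in EC1 and 1.25 times in EC2. The CON depths of Tnfaip3 thus rest on 3 sites in all. No exonic site was shared by both libraries of a mouse, so the test that requires shared sites could not be run on it. Depth at single sites in TM ran from 21 to 161 reads in EC1 and from 74 to 344 in EC2. The ratios therefore compare different positions, and the part of position in them was not tested. Counts of Tnfaip3 were 2 in CON and 5 in TM for EC1, and 3 and 23 for EC2. These were too low for edgeR's filter. Without a filter the log2 fold change of its count was 2.01 (SE 0.87, adjusted p = 0.25 by edgeR), in the same direction as the depth but not past the threshold.

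Nfkbia encodes IκBα, the main inhibitor that is rapidly remade after NF-κB activation, and its 2 readings differed. Its count was 1 in CON and 13 in TM for EC1, and 5 and 36 for EC2, so that both TM libraries were above both CON libraries. The log2 fold change of the count was 2.56 (SE 0.72, adjusted p = 0.0226 by edgeR), and Nfkbia was the only one of the 5 members tested that passed, where 4.39% of all 7899 genes rose and 3.35% fell. Its exonic depth, in contrast, was 407 reads in both cultures of EC1, and 482.5 in CON and 874 in TM for EC2, over 16 to 26 sites per library. Per 100000000 reads this was 306 and 309 for EC1 and 336 and 422 for EC2, with EC1 TM below EC2 CON. The log2 difference in depth was 0.17 (SE 0.15, adjusted p = 0.485 by limma). The ratio of TM to CON in depth was 1.01 in EC1 and 1.25 in EC2, whereas the ratio of counts, each scaled by TMM to its library's total on genes, was 13.2 in EC1 (95% interval 1.99 to 562, which covers counting error only) and 4.49 in EC2 (1.76 to 14.7). The depth at its exonic sites implied 3276 read pairs in the CON library of EC1, of which the count of 1 was 0.0305%, against a median of 0.303% over all genes in that library. In EC2 CON the share was 0.129% against 0.212%, and in the TM libraries it was 0.397% and 0.512% against 0.284% and 0.288%. No exon of another gene is annotated on the opposite strand of Nfkbia. The rise in its count is therefore not seen in its depth, and which reads the count holds was not tested. The call on the count was lost under DESeq2 (adjusted p = 0.149), without EC1 CON (adjusted p = 0.257 by edgeR) and without EC2 TM (adjusted p = 0.535 by edgeR).

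Nfkbie encodes IκBε, an inhibitor of slower response. For EC1 no exonic site of it was listed in CON, and 11 in TM had a median of 52 reads. For EC2 the 3 sites in CON had a median of 41 reads and the 9 in TM one of 97. Scaled depth was thus 1.64 times higher in EC2 TM than in EC2 CON (28.6 and 46.8), without a test, since EC1 gave no ratio. Counts were 0 in CON and 5 in TM for EC1 and 4 and 7 for EC2, and a count of 0 allows up to 3 counts, so that these counts do not separate the groups.

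Rela encodes p65, the subunit with the strong activation domain in the common p50-p65 pair. Its exonic depth went from 344 reads in CON to 568 in TM for EC1, and from 376.5 to 839 for EC2. After scaling, both CON libraries lay near each other at 258 and 262 and both TM libraries above them at 431 and 405. The log2 difference was 0.68 (SE 0.15, adjusted p = 0.0447 by limma), with ratios of 1.67 in EC1 and 1.54 in EC2. With at least 3 sites required in each library the same difference had an adjusted p of 0.0591 by limma. That fit, unlike the first, did not let the variance follow the number of sites, so the 2 differ in more than the limit. At the 2 and 3 sites shared by both libraries of EC1 and EC2 the difference was 0.58 (SE 0.14, adjusted p = 0.0659 by limma). Counts of Rela did not follow the depth. They were 10 in CON and 18 in TM for EC1 and 32 and 36 for EC2, with a log2 fold change of -0.03 (SE 0.51, adjusted p = 0.981 by edgeR), and the mice differed more than the groups.

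Nfkb1 encodes p105, the precursor of p50, the usual partner of p65. Its depth went from 252 reads in CON to 344 in TM for EC1 (189 and 261 after scaling), and from 334 to 519 for EC2 (233 and 250). The TM libraries lay above the CON libraries, but by little in EC2, where the ratio was 1.08 against 1.38 in EC1. The log2 difference was 0.28 (SE 0.15, adjusted p = 0.266 by limma) over all listed sites and 0.26 (SE 0.15, adjusted p = 0.247) at the sites shared within a mouse. At shared sites 15.7% of the 1506 genes tested rose and 20.5% fell. Counts of 26 in CON and 37 in TM for EC1, and of 22 and 46 for EC2, gave a log2 fold change of 0.45 (SE 0.42, adjusted p = 0.609 by edgeR). The depth of Rela was 1.37 and 1.13 times that of Nfkb1 in the CON libraries and 1.65 and 1.62 times in the TM libraries. No test was run on these ratios.

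Nfkb2 and Relb encode p100, the precursor of p52, and RelB, the pair of the noncanonical branch. Nfkb2 went from a depth of 63.5 reads in CON to 157.5 in TM for EC1, and from 116 to 251.5 for EC2. Scaled depth was 47.7 and 80.8 in CON, and 120 and 121 in TM. The mice differed in CON and met at nearly the same level in TM, with ratios of 2.5 and 1.5 and a log2 difference of 0.96 (SE 0.34, adjusted p = 0.124 by limma). Counts of Nfkb2 were 29 in CON and 32 in TM for EC1, and 44 and 46 for EC2 (log2 fold change -0.26, SE 0.40, adjusted p = 0.796 by edgeR). Exons of AC114539.1 and Psd lie opposite to Nfkb2, and its counts made up 0.798% to 1.99% of the read pairs that its depth implied, above the median gene in every library. The part of those genes in its count and in its depth was not tested. For Relb, no exonic site was listed in CON of EC1 and 5 in TM had a median of 116 reads. For EC2 the medians were 55 reads over 3 sites in CON and 143 over 8 sites in TM, a ratio of 1.8 after scaling, without a test. Counts of Relb were 2 in CON and 4 in TM for EC1 and 3 and 6 for EC2, too low to test. Relb listed 6 and 10 intronic sites in EC1 TM and EC2 TM, against 0 and 1 in the CON libraries.

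Rel encodes c-Rel, the subunit best known from lymphocytes. It was the least covered subunit, with 2 exonic sites of 9 and 21 reads in EC1 TM and none in the other libraries. Its counts, 7 in CON and 0 in TM for EC1 and 1 and 8 for EC2, went opposite ways in the 2 mice, and a difference was not detectable at this depth.

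The targets Birc3 and Tnfaip2 differed in level. Birc3 encodes cIAP2, a ubiquitin ligase at the TNF receptor that protects cells from death. Its depth went from 30 reads in CON to 66 in TM for EC1 and from 29.5 to 95 for EC2, and the ratios after scaling were close to each other at 2.22 in EC1 and 2.23 in EC2. With 3 sites in CON and 5 in TM for EC1, and 2 and 7 for EC2, the log2 difference of 1.15 (SE 0.30) had an adjusted p of 0.0622 by limma, just short of the threshold. Its counts, 1 in both cultures of EC1 and 2 in CON and 11 in TM for EC2, were too low to test. Tnfaip2 encodes a cytoplasmic protein that TNF induces in ECs. It was among the most covered members, at 354 reads in CON and 465 in TM for EC1, and 522.5 and 907.5 for EC2. The scaled depths of 266 and 364 in CON and 353 and 438 in TM overlapped, and the log2 difference was 0.34 (SE 0.12, adjusted p = 0.121 by limma). At sites shared within a mouse it was 0.26 (SE 0.12, adjusted p = 0.152 by limma), and by counts, which were 24 in CON and 32 in TM for EC1 and 34 and 53 for EC2, it was 0.18 (SE 0.41, adjusted p = 0.875 by edgeR). An exon of Gm40578 lies opposite to Tnfaip2, and its part in the count and the depth was not tested.

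**Figure D2:**
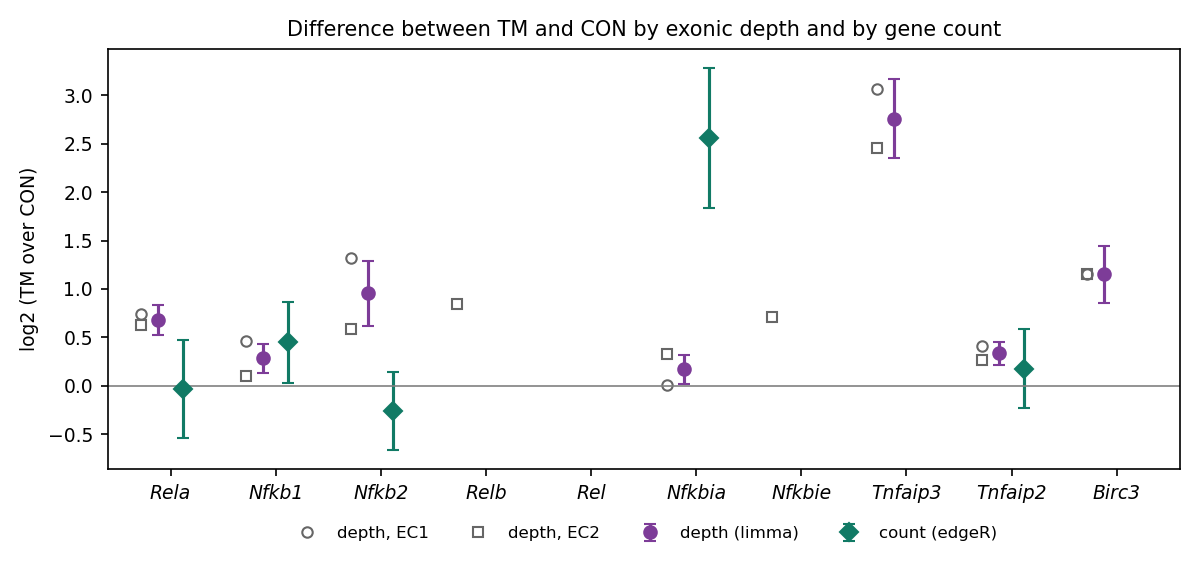
Log2 difference of TM over CON for each gene, from exonic depth (purple circles, limma, bars are 1 SE) and from gene counts (green diamonds, edgeR, bars are 1 SE), with the within-mouse depth differences as open circles (EC1) and open squares (EC2). Depth and count were far apart for Nfkbia (0.17 and 2.56), and Tnfaip3 had the largest depth difference of the 7 genes tested (2.76).

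In level, the members fell into a covered and a sparse set. In the CON libraries Nfkbia stood at 306 and 336, Tnfaip2 at 266 and 364, Rela at 258 and 262 and Nfkb1 at 189 and 233. The ranges of Nfkbia and Tnfaip2 overlapped, and those of Tnfaip2 and Rela were separated by less than the spread of Tnfaip2, while Rela lay above Nfkb1. Nfkb2 followed at 47.7 and 80.8. Birc3 at 22.5 and 20.6 and Tnfaip3 at 11.3 and 20.9 had overlapping ranges, and Relb and Nfkbie were listed in EC2 CON only, at 38.3 and 28.6. In the TM libraries Tnfaip3 stood at 94.5 and 115, below Nfkb2 and above Relb, Birc3 and Nfkbie in both mice. Its level was 3.69% of that of Nfkbia in CON and 30.6% in TM for EC1, and 6.22% and 27.2% for EC2. All exonic sites of the 10 genes together numbered 86 in CON and 133 in TM for EC1, and 122 and 222 for EC2, or 1.55 and 1.82 times as many in TM. Without Tnfaip3 the ratios were 1.4 and 1.6, against 1.07 and 1.25 over all genes.

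**Figure D3:**
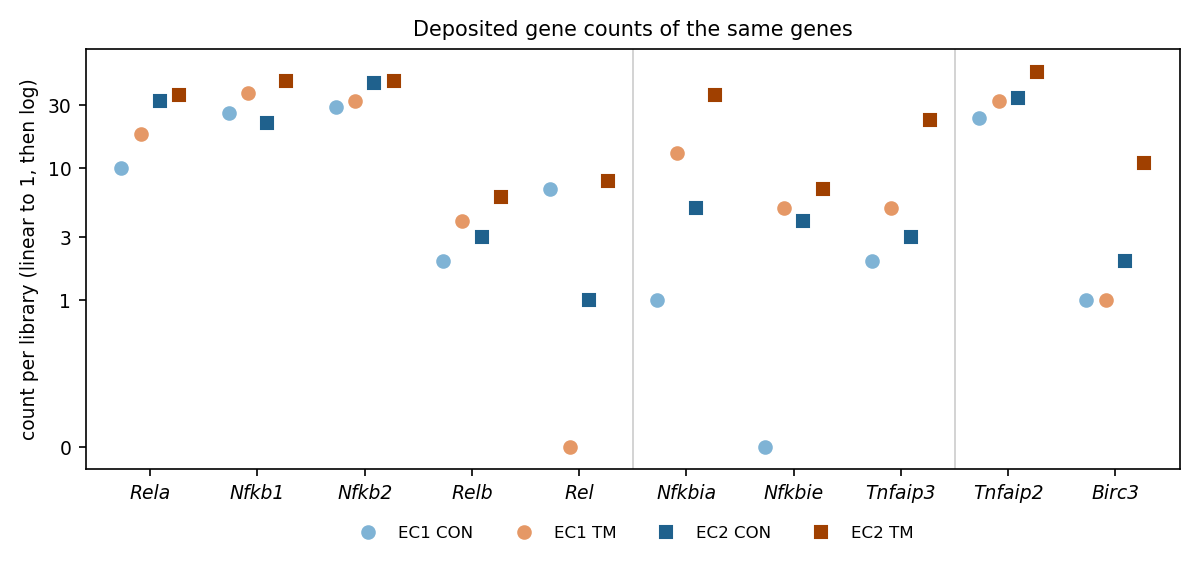
Deposited count of each gene in the 4 libraries, on an axis that is linear from 0 to 1 and logarithmic above. The counts of Nfkbia rose from 1 to 13 in EC1 and from 5 to 36 in EC2.

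The genes whose counts followed those of a called member most closely were found by the distance between centred log2 CPM (TMM-scaled counts) over the 4 libraries. For Nfkbia these were Myd88, the adaptor of Toll-like and interleukin-1 receptors (distance 0.318), and Ccdc23 (distance 0.443). Counts of Myd88 were 3 in CON and 18 in TM for EC1 and 7 and 52 for EC2. For Rela, called by depth only, they were Rnd1 (0.153) and Phlda1 (0.156). With 4 libraries many genes have such a pattern. Tnfaip3, also called by depth, had no such search, since its counts did not pass edgeR's filter.

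The other genes of the pathway were read from 5 lists of 71 genes in all. By exonic depth, 9 of the 55 genes tested rose and none fell, where 6.67% of all genes rose and 6.58% fell. By count 6 of 40 rose and none fell, where 4.39% of all genes rose and 3.35% fell. The median log2 difference over these genes was 0.37 in depth and 0.46 in count. Of the 12 targets with a depth test 6 rose, among them the adhesion molecules of ECs Vcam1 and Icam1. The scaled depth of Vcam1 went from 39.1 in CON to 112 in TM for EC1 and from 54.3 to 142 for EC2 (log2 difference 1.45, SE 0.17, adjusted p = 0.0079 by limma). That of Icam1 went from 168 to 326 and from 228 to 430 (log2 difference 0.94, SE 0.16, adjusted p = 0.0236 by limma). Ptgs2, the inducible cyclooxygenase, rose by 1.95 (SE 0.21), the growth factor gene Csf1 by 1.36 (SE 0.12), the transcription factor gene Junb by 1.08 (SE 0.18) and the chemokine gene Ccl2 by 1.01 (SE 0.15), all on the log2 scale of depth. Their adjusted p-values by limma were 0.00685, 0.00322, 0.02 and 0.0145. Only 3 targets could be tested at sites shared within a mouse. Csf1 and Ccl2 also rose there, and Plau, the urokinase gene, fell by 0.62 (SE 0.15, adjusted p = 0.0384 by limma). Vcam1, Icam1, Ptgs2 and Junb had no test at shared sites, so the part of site position in their values was not tested. Csf1 and Junb also rose by count, with log2 fold changes of 1.66 and 1.64 (adjusted p = 0.00261 and 0.00795 by edgeR). Irf1 rose by count by 2.44 (adjusted p = 0.000949 by edgeR). It had no depth test, since EC1 CON listed no exonic site of it.

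The upstream genes were read in the same way, and each of their lists held 0 or 1 call by depth, where 6.67% of all genes rose, so that single genes rather than the lists are described. Of 9 kinases and kinase partners none passed by depth, nor did any of 6 by count, with medians of 0.37 and 0.46 on the log2 scale. Of 7 receptors with a depth test Tlr3, the endosomal sensor of double-stranded RNA, rose. Its scaled depth went from 39.1 in CON to 228 in TM for EC1 and from 55 to 230 for EC2 (log2 difference 2.3, SE 0.23, adjusted p = 0.00574 by limma), and its counts, 2 and 34 for EC1 and 6 and 29 for EC2, rose as well (log2 fold change 2.65, SE 0.64, adjusted p = 0.00666 by edgeR). Of 17 adaptors and ubiquitin ligases Rnf31, the catalytic part of the linear ubiquitin ligase, rose by depth (1.4, SE 0.24, adjusted p = 0.0225 by limma), and Myd88 rose by count of 11 tested (2.35, SE 0.60, adjusted p = 0.0114 by edgeR). Of 10 other inhibitors N4bp1 rose by depth (1.3, SE 0.13, adjusted p = 0.0058 by limma) and by count (1.78, SE 0.41, adjusted p = 0.00353 by edgeR). Tlr3, Rnf31 and N4bp1 had no depth test at shared sites. The difference between upstream genes and targets was not tested.

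**Figure D4:**
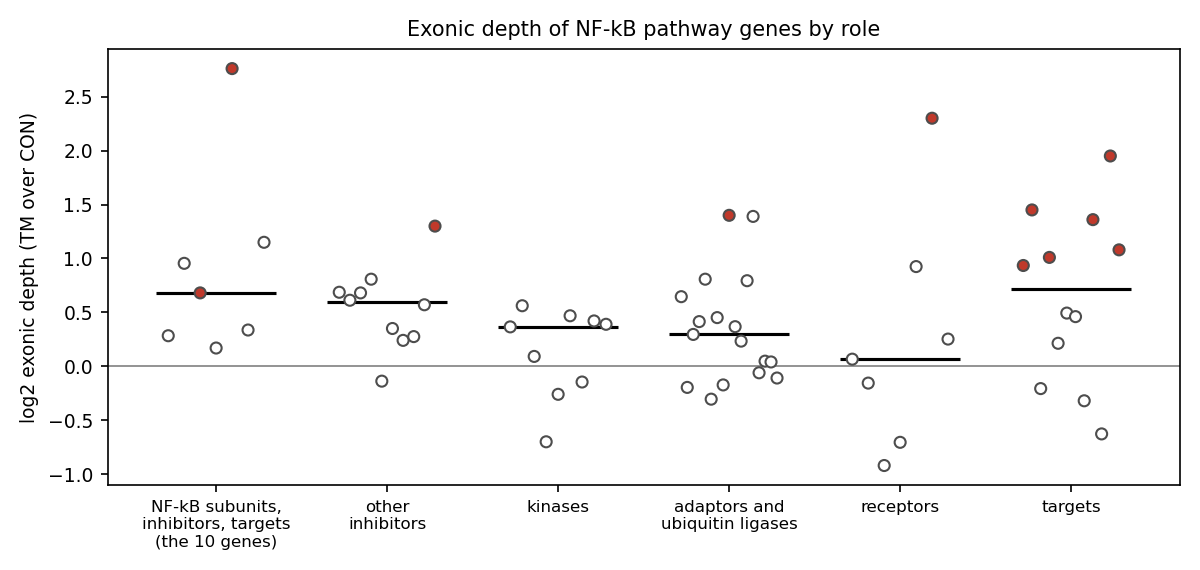
Log2 difference in exonic depth (TM over CON) of each tested gene by role, with the 10 genes of the report in the first column, of which 7 could be tested. Filled red points passed limma's test, open points did not, and black lines are medians: 0.68, 0.59, 0.37, 0.30, 0.07 and 0.71 from left to right.

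Markers of cell types were read by depth too. In bulk samples fewer cells of a type and less RNA per cell cannot be told apart. Of 12 endothelial genes, Cdh5, Eng, Emcn and Pecam1 had scaled depths from 1470 to 5600, while Vwf was near 0 (8.27 and 9.75 in CON, 3.79 and 4.1 in TM), and the summed depth was 17200 to 25800. It went from 20500 in CON to 17200 in TM for EC1 and from 25800 to 18800 for EC2, and 4 of the 12 genes tested (Pecam1, Tie1, Erg and Cldn5) fell by depth, where 6.58% of all genes fell. None rose, and the values of Flt1 were higher in TM (102 and 156 for EC1, 93.4 and 132 for EC2, log2 difference 0.56, adjusted p = 0.072 by limma). By count Cldn5 alone fell of 10 tested. Of 10 leukocyte markers none could be tested by depth, and their summed scaled depth was 20.9 to 36.8 in every library. Cd68 stood at 26.3 in CON and 20.9 in TM for EC1 and at 23.2 in EC2 TM. Lyz2 stood at 10.5 in EC1 CON, 28.6 in EC2 CON and 8.44 in EC2 TM. Cd79a and Csf1r were listed in EC2 TM only. Ptprc, Adgre1, Itgam, Cd3e, Tyrobp and Laptm5 listed no exonic site in any library. The 10 markers of fibroblasts and smooth muscle summed to 598 in CON and 204 in TM for EC1, and to 940 and 322 for EC2, lower in TM. A gene without a listed site added 0 to a sum. Genes with sites numbered 8 in CON and 5 in TM for EC1, and 9 and 8 for EC2. Acta2 was at 93.9 in EC1 CON and not listed in EC1 TM. Against the sums, Pdgfra was higher in TM for EC2 (2.09 and 11.1) and Myh11 for EC1 (2.25 and 5.69). Dcn fell, the only one of 4 tested. The 7 epithelial markers summed to 30.7 to 40.3, nearly all of it from Krt18 at 30.7 to 36.9. The part of these shifts in the depth of the NF-κB genes was not tested.

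Editing of the members was sparse. The site table lists 696 sites in or near the 10 genes among 1205261 in all, and 72.7% of them lay in exons or UTRs against 45.6% of all sites. Only 5.03% lay in SINEs, the repeats that hold much of ADAR1 editing in mice, against 13.9% of all sites. Only 3 member sites (0.431%) had, in any library, 5 reads or more with 3 or more of them altered and an altered share of 0.05 to 0.95, against 2.01% of all sites. Most listings of members, 87.4%, showed a single altered read, against 76.3% over all genes.

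Of the 3 sites, that of Rel lay in a B2_Mm1a element at position 23813342 of chromosome 11, which the authors annotated as 5′ distal. Rel spans 23736847 to 23770970 on the minus strand in GENCODE vM21, so the site lies outside the gene. Whether its reads came from RNA of Rel was not tested. The site had 4 altered of 7 reads in EC1 TM, 1 of 3 in EC2 CON and 7 of 8 in EC2 TM, and was not listed in EC1 CON. The rate in EC2 TM was 87.5% (95% Wilson interval 52.9 to 97.8) and that in EC2 CON 33.3% (6.15 to 79.2), with overlapping intervals. The site of Rela lay in a B3 element of an intron at position 5642274 of chromosome 19. For EC1 it had 2 altered of 11 reads in CON and 2 of 13 in TM, and for EC2 3 of 8 and 2 of 24. In EC2 the rate was 37.5% in CON and 8.33% in TM, and in EC1 it was 18.2% and 15.4%, and the intervals of CON and TM overlapped in both mice (EC2, Fisher's exact test, two-sided, p = 0.0854, adjusted p = 0.659). This was the only test of a member site, among 10402 sites tested in EC2, of which 2.46% differed. No member site could be tested in EC1, where 0.959% of 9800 sites differed. The site of Nfkbie, at position 45560409 of chromosome 17, lay outside repeats at the 2nd base of exon 5 of 6 of ENSMUST00000024742.8, in the coding sequence. The first 21 bases of that exon are printed with the site in capitals to show how near it is to the splice junction.
Nfkbie, chr17:45560408-45560428, plus strand: gAgggcacgagtggaaagact
It had 3 altered of 52 reads in EC1 TM (5.77%, 1.98 to 15.6) and 1 of 94 in EC2 TM (1.06%, 0.188 to 5.78), and neither CON library listed it. A site that a library does not list has no known depth there, so absence of editing in CON was not shown.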

How the data were processed

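RNA of lung ECs from 2 i-KO mice was depleted of ribosomal RNA and sequenced in read pairs. The authors used Trimmomatic 0.38 for trimming and STAR 2.6.1a for alignment to mm10, counted reads per gene with HTSeq 0.11.2 under default settings and deposited raw counts. They called variants with BCFtools, kept A-to-G changes (T-to-C for genes on the minus strand). The deposited site table holds the reads with each base and, as a fraction, the share of altered reads.

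The quasi-likelihood test of edgeR 4.0.16 (R 4.3.3), with TMM scaling, filterByExpr and condition as the only term, compared counts, with Benjamini-Hochberg adjustment over all 7899 genes kept, at 0.05. Reads on no gene (92.8% to 93.9% of each total) and non-unique alignments (5.29% to 6.32%) were left out. A count of 0 allows up to 3 counts (1.69 to 2.74 CPM). Exonic depth (reference plus altered reads) was compared within mice with limma 3.58.1, by plan at sites that both libraries of the mouse list, at least 3 per mouse. Only 2 members had such sites, so the median over all listed sites, at least 1 per library, was added after seeing the data. In this added fit the prior variance followed the smallest number of sites in a library, on the log2 scale. The other depth fits had no such trend. Implied read pairs are median depth times exonic length over 2 reads of 100 bases. Editing used Fisher's exact test per site and mouse. Alternatives were DESeq2 1.42.0, RLE scaling, other filters, the mouse as a replicate block, other site sets and limits, and each library left out. The count tests, the editing test and the depth fit without a variance trend were tried on simulated data with known differences. The added depth fit over all listed sites was not. Python 3.11.15, pandas 2.3.3, numpy 2.4.6 and scipy 1.17.1 were used.

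Pairing follows the study, which split the cells of each mouse over both cultures. Deviations from the group means correlated with r = 0.163 between CON and TM of a mouse. The genes and lists were chosen with earlier results of these data known. Named genes were all 10 members, Adar and up to 6 list genes past a threshold per list. Added to these were the 2 genes nearest in counts to each called member that edgeR's filter kept, among genes with a mean count of at least 10. Gene positions came from GENCODE vM21, which matched 23376 of 24421 genes and may differ from the annotation used for counting.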

Additional observations from a re-analysis of the deposited data

How the results depend on the processing

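The call of Nfkbia, the 1 member called by count, was lost under DESeq2, under DESeq2 with the mouse as a replicate block (which gave it no adjusted p) and with at least 10 counts in every library (which removed it), leaving 0 members called each time. Leaving out each library in turn gave 0 to 1 members called. It was kept with RLE scaling, no filter, and edgeR with the replicate block. Over all genes edgeR called 612, or 1184 with the replicate block. Of the other pathway genes 6 were called by count, 8 by edgeR with the replicate block, 3 by DESeq2 with the replicate block, and 2 to 5 when a library was left out, with 2 without EC1 CON. The count of Adar had log2 fold changes of 1.48 to 2.36 when a library was left out, losing its call without EC1 CON (1.48), and of 1.90 without a call by DESeq2 with the replicate block. The sign of members that were never called turned for the count of Nfkb2 (-0.56 to 0.09 with a library left out, above 0 without EC2 CON), of Tnfaip2 (-0.08 to 0.47, below 0 without EC1 CON) and of Rela (-0.67 to 1.05), which was 0.00 with at least 10 counts in every library, 0.04 and 0.12 with the replicate block in edgeR and DESeq2, 0.11 without EC1 TM and 1.05 without EC2 CON.

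Depth at shared sites called 545 of 1506 genes, whose median log2 difference was -0.115 in EC2, and centring on that median made no call on Nfkb1 or Tnfaip2. It called 297 with at least 5 sites, 215 with 3′ UTR sites, 196 at sites listed in all 4 libraries and 101 there with no replicate block, where 787, 545, 621 and 621 genes could be tested. Over all listed sites it called 1297 of 9788 genes, and 960 of 6836 with at least 3 sites per library and no variance trend on the number of sites. No member site was called for editing with rate limits of 0.10 to 0.90 or within repeats, and none could be tested at a depth of 10 or 20. The depth of Tnfaip3, Birc3 and Nfkb2 in CON rests on few sites (1 to 10 per library), which limits its precision.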

Other observations

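Intronic depth of the members was low in every library and is given as values. Nfkb1, with 14 to 23 intronic sites per library, had scaled intronic depths of 9.77 in CON and 9.1 in TM for EC1, and of 7.66 and 7.24 for EC2. Tnfaip2 stood at 27.1 and 19 for EC1 (4 and 12 sites) and at 6.27 and 22.2 for EC2 (2 and 13 sites). Nfkbia listed 2 intronic sites in EC1 TM and 1 in EC2 TM, with scaled depths of 23.1 and 43.9, and none in either CON library.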
